A study of Mus musculus with 27 samples.

Results

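The genes described are 33 interferon-stimulated genes, taken as a module of known members: transcription factors of the interferon response, its antiviral effectors and RNA sensors, and its large GTPases. Members were matched by gene symbol in the platform annotation, and 1 probe per gene, that of the highest mean level, was kept. Of the 33 genes, 32 were named among the 19057 genes of the arrays, 30 were detected on at least 1 array, and 22 on all 27. Ifit1 and Xaf1 were detected on no array, and the level of Ifi44 was not analysed here. A gene was called detected where its detection p was under 0.05, so that its signal stood above the negative control beads.

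The samples were mouse osteosarcomas, tumours of bone-forming cells, profiled from total RNA of tissue on single-colour Illumina bead arrays. There were 6 localized primary tumours, 12 primary tumours that had given rise to metastases, 7 lung metastases and 2 liver metastases. All came from animals on a C57BL/6 background carrying Col2.3-Cre, in which a rat Col1a1 promoter fragment drives Cre in the osteoblast lineage, together with either a floxed p53 allele or LSL-p53R172H, a point-mutant p53 allele freed by Cre. The labels give neither the p53 allele of each tumour nor an age or a treatment, and no group had intact p53 as a control. Each lung metastasis carries the specimen number of 1 of the metastatic primaries. Liver metastasis CR-147 shares its number with a primary and a lung lesion, whereas RF-342 has no primary in the analysis. Nothing in the labels says whether the specimens of a group came from separate animals, so that p-values measure only the spread between these samples, which may be technical in part.

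Interferons are secreted by cells that sense viral or misplaced nucleic acid, or by activated lymphocytes, and act on neighbouring cells through JAK kinases and STAT factors. Type I interferons assemble a factor complex that includes Stat2 and Irf9 and binds the interferon-stimulated response element (ISRE). Interferon-gamma, made by T cells and NK cells, acts through the gamma-activated site (GAS) and induces Irf1 and the large GTPases. In tumours the same genes are read as a sign of interferon signalling in cancer cells, infiltrating cells or both. In bulk tissue, a change in the number of cells of one type and a change in RNA per cell cannot be told apart.

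Promoter windows were taken from RefSeq (GRCm38.p6), covering 250 bases before to 50 after each annotated start, for the 25 members that the table held. The ISRE core was searched as GAAA, 2 bases of any kind and GAAA again, or as TTTC, 2 bases and TTTC for the other strand. The GAS was searched as TTC, 3 bases of any kind and GAA, which reads the same on both strands, and a GAS may overlap an ISRE core. An ISRE core was present for 15 of the 25 members, against 3.99% of 27025 genes with a window. A GAS was present for 7 of the 25, against 9.55% of genes. Both were found for 4 members, only the ISRE core for 11, only the GAS for 3 and neither for 7. Windows of 6 members are shown for their first 250 bases, 5′ to 3′ on the gene's strand, with motif letters in capitals. Isg15 and Ifit3 are shown as genes whose levels moved together across tumours, Gbp2 and Igtp as large GTPases highest in a tumour with interferon-gamma transcript, Irf1 as the factor with a GAS alone, and Irgm1 as a gene whose brightest probe hardly varied. Irf1 had 2 windows, and the one not shown held neither motif. A gene with several windows was counted where any of them matched.
Isg15, chr4:156200819-156201068, minus strand: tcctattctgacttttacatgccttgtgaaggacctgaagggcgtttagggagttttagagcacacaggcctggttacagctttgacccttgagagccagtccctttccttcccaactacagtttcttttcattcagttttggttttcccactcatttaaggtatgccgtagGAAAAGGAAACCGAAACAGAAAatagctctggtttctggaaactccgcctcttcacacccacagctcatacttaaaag
Ifit3, chr19:34583279-34583528, plus strand: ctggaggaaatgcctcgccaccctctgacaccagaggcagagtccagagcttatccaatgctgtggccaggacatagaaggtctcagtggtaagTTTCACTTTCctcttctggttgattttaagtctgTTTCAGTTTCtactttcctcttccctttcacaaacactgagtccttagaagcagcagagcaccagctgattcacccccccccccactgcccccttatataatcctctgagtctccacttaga
Gbp2, chr3:142620413-142620662, plus strand: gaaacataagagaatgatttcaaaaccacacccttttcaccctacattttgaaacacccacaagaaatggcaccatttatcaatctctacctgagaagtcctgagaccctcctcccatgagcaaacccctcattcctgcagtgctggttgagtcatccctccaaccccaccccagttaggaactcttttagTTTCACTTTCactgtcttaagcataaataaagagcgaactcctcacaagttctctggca
Igtp, chr11:58199306-58199555, plus strand: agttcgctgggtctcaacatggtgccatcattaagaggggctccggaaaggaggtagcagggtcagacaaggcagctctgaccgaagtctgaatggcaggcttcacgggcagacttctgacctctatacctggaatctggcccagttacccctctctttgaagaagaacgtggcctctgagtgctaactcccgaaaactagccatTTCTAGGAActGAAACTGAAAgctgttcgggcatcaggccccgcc
Irf1, chr11:53769764-53770013, plus strand: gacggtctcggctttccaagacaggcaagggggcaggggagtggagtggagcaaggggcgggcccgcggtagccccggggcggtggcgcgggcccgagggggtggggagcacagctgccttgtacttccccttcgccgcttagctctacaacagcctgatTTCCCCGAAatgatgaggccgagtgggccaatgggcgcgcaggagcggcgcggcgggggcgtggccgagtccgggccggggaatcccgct
Irgm1, chr11:48871421-48871670, minus strand: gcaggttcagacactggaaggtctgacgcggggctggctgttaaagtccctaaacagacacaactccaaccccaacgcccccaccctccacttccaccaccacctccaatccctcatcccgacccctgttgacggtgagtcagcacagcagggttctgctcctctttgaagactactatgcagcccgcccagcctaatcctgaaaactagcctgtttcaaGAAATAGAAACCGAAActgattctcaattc
In Isg15 the capitals are 3 overlapping ISRE cores, and in Irgm1 they are 2. Ifit3 holds 2 separate cores and Gbp2 holds 1. Igtp holds a GAS followed closely by an ISRE core. A match of letters is a description and not a binding site, and the windows without a match, those of Irf7 and Oasl1 among them, say only that these letters are absent there.

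Between 42.6% and 47.5% of probes were detected per array, and the array background, the median signal of probes near the negative controls, ran from 39.0 to 79.2. Background was low (under 50) on 4 localized primaries, 2 metastatic primaries and all 9 metastases, and high on 2 localized and 10 metastatic primaries. Osteoblast markers set 4 primaries apart: the mean log2 level of 10 markers was 6.86 in CR-65, 7.74 in RF-56, 7.40 in CR-45 and 7.87 in FC-28, while the other primaries were at 11.79 or above. The FC-28 lung metastasis was likewise at 6.49. Every lung metastasis carried lung epithelium transcripts, with a marker mean of 11.40 to 13.23 against 4.84 to 5.78 in primaries, and both liver metastases carried hepatocyte transcripts, with 12.81 and 13.01. Levels are given throughout as log2 normalised intensity, on which 1 unit is a doubling. A level is comparable between arrays for one probe, not between probes.

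The interferon-stimulated genes varied more from tumour to tumour than from group to group. Over the 18 primaries the median SD of the 28 tested members was 0.93, with a range of 0.31 to 1.46, where the median over 11684 genes was 0.49 and the 90th percentile 1.14. Over the 7 lung metastases it was 1.08, where all genes had 0.50. A few arrays held most of the high values. The RF-212 lung metastasis was the highest of 27 for 12 of 30 members, the localized primary RF-56 for 10 and the metastatic primary RF-104 for 4. RF-56 was among the 5 highest arrays for 29 of 30 members, the RF-212 lung metastasis for 26, RF-104 for 18, the FC-28 primary for 17 and the CRE-155 lung metastasis for 13. At the other end, the lung metastases CR-147 and RF-379 were each the lowest of all arrays for 8 members. High and low tumours therefore occurred within the same group.

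**Figure D1:**
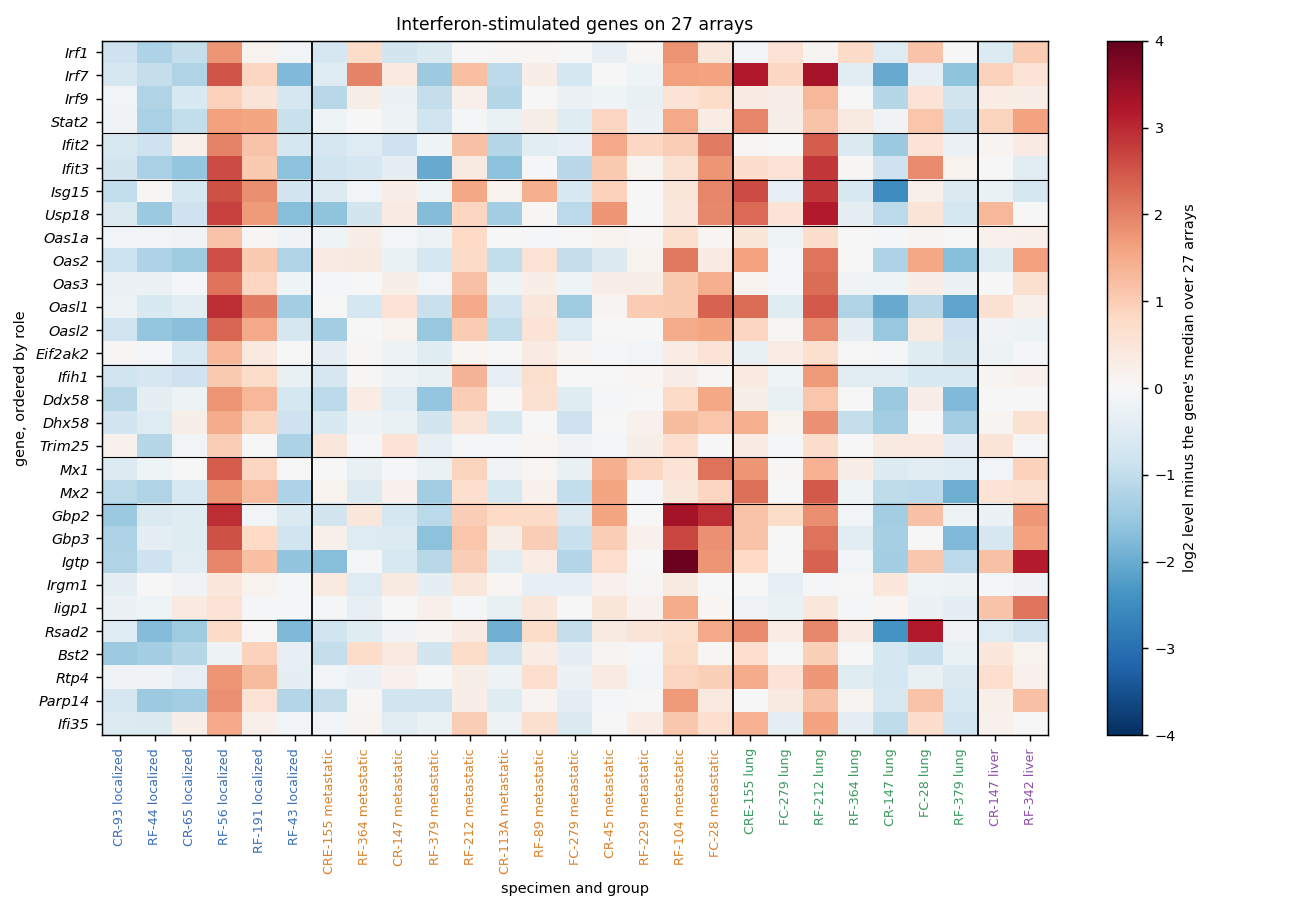
Heat map of the 30 detected interferon-stimulated genes (rows, ordered by role) on 27 arrays (columns, by group), coloured by log2 level minus the gene's median over all arrays, red above and blue below. The columns of RF-56 and of the RF-212 lung metastasis are red over nearly all rows, RF-104 is darkest at Gbp2, Gbp3 and Igtp, and the Irgm1 row, drawn from its brightest probe, is pale throughout.

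Among the transcription factors, Irf7, the factor that amplifies type I interferon production, spread most. In localized primaries its level had a low of 5.79, a median of 6.72 and a high of 10.05. In metastatic primaries these were 6.08, 7.68 and 9.52, and in lung metastases 5.54, 7.23 and 10.84. The 2 liver metastases were at 8.08 and 8.46. All groups overlapped, and the highest values belonged to RF-56 among localized primaries, RF-364 among metastatic primaries and RF-212 among lung metastases. Irf1, which responds to interferon-gamma, ran from 10.71 in the localized primary RF-44 to 13.73 in RF-104, with RF-56 next at 13.71. Stat2 ran from 6.01 to 9.27 and Irf9, its partner in the ISRE-binding complex, from 8.34 to 10.88.

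Isg15 encodes a ubiquitin-like protein that is attached to other proteins, and Usp18 the protease that removes it and dampens the interferon receptor. Isg15 had a low of 8.98, a median of 9.64 and a high of 12.53 in localized primaries, and 9.36, 10.17 and 11.92 in metastatic primaries. In lung metastases it spanned 7.49 to 12.78 around a median of 9.63, and in the liver metastases it was at 9.69 and 9.26. The groups overlapped, with the lowest and the highest of all arrays both being lung metastases, CR-147 and RF-212. Usp18 had the same 2 lesions at the ends of its lung range, 8.19 and 12.44. In primaries it ran from 7.52 in RF-379 to 11.98 in RF-56, followed by FC-28 at 11.19 and CR-45 at 11.01.

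The IFIT proteins bind foreign RNA and block its translation. Ifit3 had a low of 8.89, a median of 9.52 and a high of 13.14 in localized primaries, and 8.52, 10.33 and 12.29 in metastatic primaries. Its lung metastases ran from 9.72 over a median of 11.13 to 13.37, and its liver metastases were at 10.54 and 10.07. The lung median stood above the median of either primary group, yet the ranges overlapped. Ifit2 ran from 6.57 in the CR-147 lung metastasis to 10.48 in that of RF-212. Ifit1 stayed between 4.41 and 4.78, not above background on any array.

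The oligoadenylate synthetases activate RNase L, which degrades RNA, and Oasl1 and Oasl2 are their OAS-like relatives. Oasl1, known in the mouse to restrain Irf7, ran from 5.44 in the RF-379 lung metastasis to 10.52 in RF-56, and Oasl2 from 8.37 in the localized primary CR-65 to 12.37 in RF-56. Oas2 was detected on 25 arrays and ran from 5.02 to 9.29, again with RF-56 on top. The other synthetases were near the detection limit. Oas1a was detected on 4 arrays and Oas3 on 7, the highest values being 5.87 for Oas1a in RF-56 and 6.97 for Oas3 in the RF-212 lung metastasis. Eif2ak2, the RNA-activated kinase PKR that halts translation, moved little, between 10.03 and 12.10.

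The RNA sensors showed the same tumours at the top. Ddx58, the sensor RIG-I, ran from 6.13 in the RF-379 lung metastasis to 9.67 in RF-56. Dhx58, a helicase of the same family, ran from 6.46 to 9.68, and Ifih1, the sensor MDA5, was detected on 14 arrays with a high of 7.04 in the RF-212 lung metastasis. Trim25, a ubiquitin ligase acting on RIG-I, lay between 8.99 and 11.25. The Mx proteins are dynamin-like antiviral GTPases, and C57BL/6 mice carry a defective Mx1. Mx1 was detected on 15 arrays with a high of 7.70 in RF-56, and Mx2 on 26 arrays with a high of 9.47 in the RF-212 lung metastasis.

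The guanylate-binding and immunity-related GTPases attack the vacuoles of intracellular pathogens and are strongly induced by interferon-gamma. Igtp had the widest range of all members. It had a low of 7.60, a median of 8.56 and a high of 11.12 in localized primaries, and 7.46, 9.14 and 13.09 in metastatic primaries. In lung metastases it ran from 7.83 over 9.21 to 11.53, and the liver metastases were at 10.35 and 12.33. RF-104 and the RF-342 liver metastasis were the only arrays above 12. Gbp2 and Gbp3 also peaked in RF-104, at 13.55 and 12.14, with RF-56 at 13.15 and 12.02. Iigp1 was detected on 9 of 27 arrays, 2 localized primaries, 4 metastatic primaries, 1 lung and both liver metastases, and its highest values were 7.17 in the RF-342 liver metastasis, 6.51 in RF-104 and 6.17 in the CR-147 liver metastasis. Irgm1, a regulator of these GTPases, was nearly level at 12.87 to 13.84 by its brightest probe. A further Irgm1 probe, also detected on all 27 arrays, ran from 7.85 to 11.10, with RF-104 highest and the RF-342 liver metastasis next at 10.85.

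Rsad2 encodes viperin, a radical SAM enzyme that makes a chain-terminating nucleotide. It had a low of 8.78, a median of 9.59 and a high of 11.34 in localized primaries, and 8.65, 10.78 and 12.08 in metastatic primaries. In lung metastases it spanned 8.19 to 13.73 around 10.90, and the liver metastases were at 10.05 and 9.78. The top value was the FC-28 lung metastasis, which was not high for Isg15 (10.15) or Oasl1 (6.46). Bst2, which tethers budding virus to the cell, ran from 7.97 to 10.36, and Rtp4, a receptor transport protein, from 4.94 to 7.43. Parp14, an ADP-ribosyltransferase, ran from 8.21 to 11.48 and Ifi35 from 7.08 to 9.71.

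To describe how the members moved with each other, the level of every gene was fitted on that of Isg15 over the 18 primaries with limma. The choice of Isg15 was made after its values were seen. Of the 27 other members tested, 11 had a positive slope at a Benjamini-Hochberg adjusted p under 0.05, where 0.231% of 11683 genes did, which is 27 genes. The 11 were Ddx58, Usp18, Rtp4, Oasl1, Ifit3, Oasl2, Mx2, Mx1, Ifih1, Gbp3 and Dhx58. Of the remaining 16 genes, 6 were on the lists of other interferon genes: Phf11d, Ifi47, Lgals9, Oas1g, Ccl5 and Cxcl10. The median slope of the members was 0.66, against -0.01 for all genes, and all 27 slopes were above 0. Usp18 rose by 1.14 ± 0.16 (SE) for each unit of Isg15 (limma adjusted p = 0.0025), Oasl1 by 1.04 ± 0.15 (0.0027) and Ifit3 by 1.03 ± 0.15 (0.0033).

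The slopes of 3 members were shallow. Iigp1, detected on 6 of the 18 primaries, had a slope of 0.11 ± 0.10 (limma adjusted p = 0.71), the brightest probe of Irgm1 of 0.13 ± 0.07 (0.54) and Trim25 of 0.20 ± 0.12 (0.59). Igtp had a slope as steep as the leading genes, 0.98 ± 0.22, with an adjusted p of 0.076. The calls rested on few tumours. Without RF-56, 1 of 27 members was called, and without RF-104 there were 19. Over the fits with 1 primary left out, 2 to 59 of all genes were called. With Irf7 in place of Isg15, 17 members were called, where 0.693% of genes were. Without the 2 primaries farthest from the Isg15 median, RF-56 at 12.53 and FC-28 at 11.92, no gene had a called positive slope. The median slope of the members was then 0.60. Leaving out the 4 primaries low in osteoblast markers gave no call among the members, where 0.00856% of genes had a called positive slope. It left the members at a median slope of 0.57. Within the 6 low-background primaries the median slope was 0.74 and within the 12 high-background primaries 0.55, with no limma call in either set. In the 7 lung metastases 24 of 25 slopes were above 0, with a median of 0.52 and none called. Over all genes, no positive slope was called in the lung metastases or within either background class. The median slopes of these alternatives are given without those of all genes beside them. Cell type markers moved with Isg15 as well, without a call: the median slope was 0.36 for 12 macrophage markers, 0.44 for 11 T and NK cell markers and -0.96 for 10 osteoblast markers, and their part in the result was not tested.

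**Figure D2:**
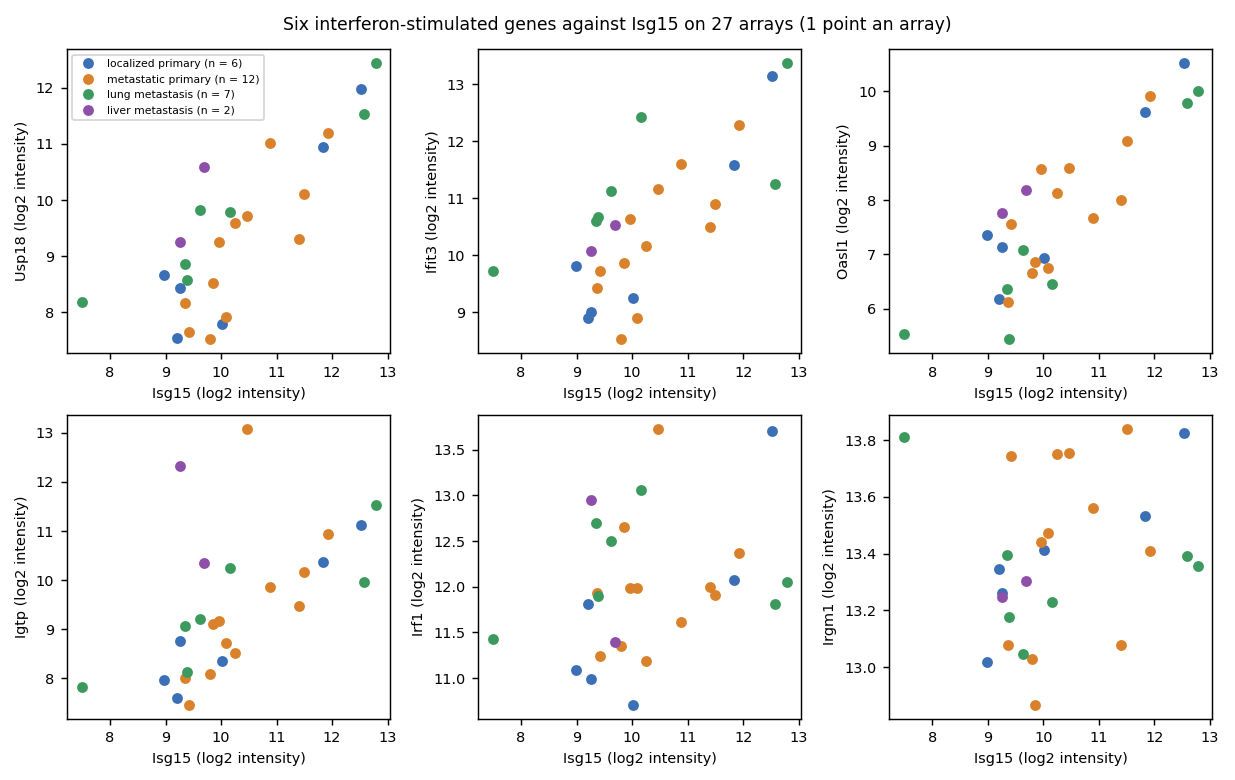
Log2 intensity of Usp18, Ifit3, Oasl1, Igtp, Irf1 and Irgm1 against that of Isg15, 1 point for each of 27 arrays, coloured by group. Usp18, Ifit3 and Oasl1 climb with Isg15, Igtp has 2 points above 12 at Isg15 levels of 10.46 and 9.26, which are RF-104 and the RF-342 liver metastasis, and the brightest Irgm1 probe stays between 12.87 and 13.84.

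Of 20 interferon genes named, 7 were detected on any array, and Ifnb1 on none. Ifna6 and Ifnab, of the interferon-alpha family, were detected on all 27 arrays, at 6.37 to 7.23 and 6.24 to 7.69. Ifng, the gene of interferon-gamma, was detected on 2 arrays, the metastatic primary RF-104 at 9.61 and the RF-342 liver metastasis at 6.14, while the other 25 arrays lay between 4.51 and 4.94. On those arrays Igtp stood at 13.09 and 12.33 and Iigp1 at 6.51 and 7.17, the highest values of either gene. Isg15 was at 10.46 and 9.26 there, against a median of 9.97 over all arrays. RF-56 and the RF-212 lung metastasis, with Isg15 at 12.53 and 12.78, had no detected Ifng. Chosen after their values were seen, Cxcl9, a chemokine induced by interferon-gamma, was at 14.63 and 12.58 on the arrays with Ifng and the T cell gene Cd3e at 10.74 and 7.46. The mean level of the 12 T and NK cell markers detected on an array was 9.05 in RF-104 and 7.89 in the RF-342 lesion. The other primaries ran from 6.38 to 8.24, highest in RF-56, and the lung metastases from 6.36 to 8.31, highest in RF-212. The RF-342 mean thus lay within the range of arrays without detected Ifng. The part of these cells in the GTPase levels was not tested.

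Among the receptor genes, Ifnar2, Ifngr1 and Ifngr2 were detected on all 27 arrays, and the probe of Ifnar1, the other type I receptor chain, on none. Ifnar2 ranged from 6.54 to 8.48, Ifngr1 from 9.49 to 12.09 with RF-104 highest, and Ifngr2 from 8.48 to 10.65. None of the 8 receptor and kinase genes tested had a slope on Isg15 that passed the threshold.

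**Figure D3:**
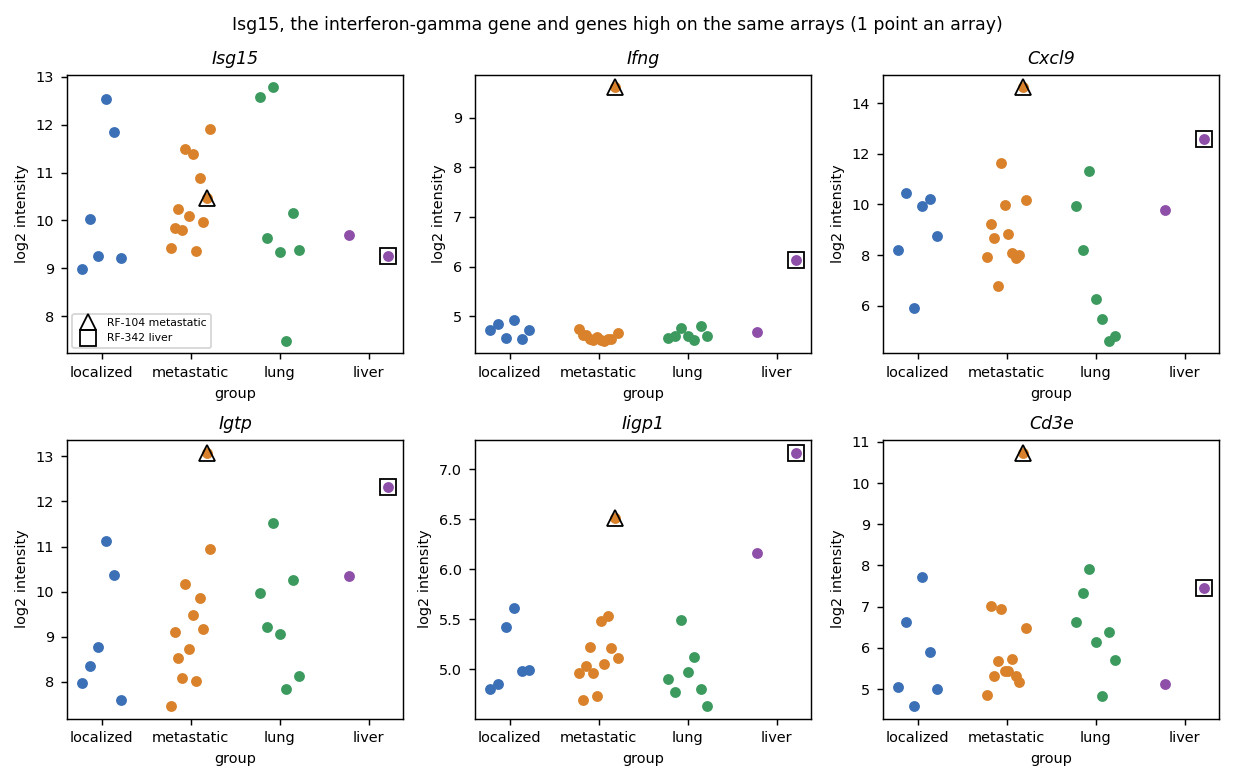
Log2 intensity of Isg15, Ifng, Cxcl9, Igtp, Iigp1 and Cd3e by group, 1 point for each of 27 arrays, with the triangle marking RF-104 and the square the RF-342 liver metastasis. Both marked arrays are the 2 highest for Ifng, Cxcl9, Igtp and Iigp1, while their Isg15 levels are 10.46 and 9.26.

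The series was designed to compare primaries that metastasised with those that stayed localized. None of the 28 members tested differed at a limma adjusted p under 0.05, in either direction, and none had an unadjusted p under 0.05. Over all genes 0.00856% were called. At an unadjusted p under 0.05, 340 of 11684 genes were higher and 423 lower. The median difference of the members, metastatic minus localized, was 0.10, with 20 of 28 above 0. All genes had a median of 0.009, with 5963 of 11684 above 0. The lowest unadjusted p belonged to Bst2, at 9.43 ± 0.61 (SD, n = 12) in metastatic and 8.83 ± 0.91 (n = 6) in localized primaries, a difference of 0.60 with a 95% interval of -0.11 to 1.31 (limma adjusted p = 0.80). Gbp2 differed by 0.70 (-0.72 to 2.12) and Rsad2 by 0.77 (-0.17 to 1.71). The interval of Usp18, -1.47 to 1.34, spans a doubling in either direction, and that of Isg15, -0.97 to 1.17, a doubling in metastatic primaries, so that such differences lie within the error of these tumours. All 28 members had overlapping groups, as did all but 0.0171% of genes. Within the low-background arrays, 2 metastatic (RF-104 and FC-28) against 4 localized primaries, the median difference was 1.19, and within the high-background arrays, 10 against 2, it was -0.18, with no member called in either.

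**Figure D4:**
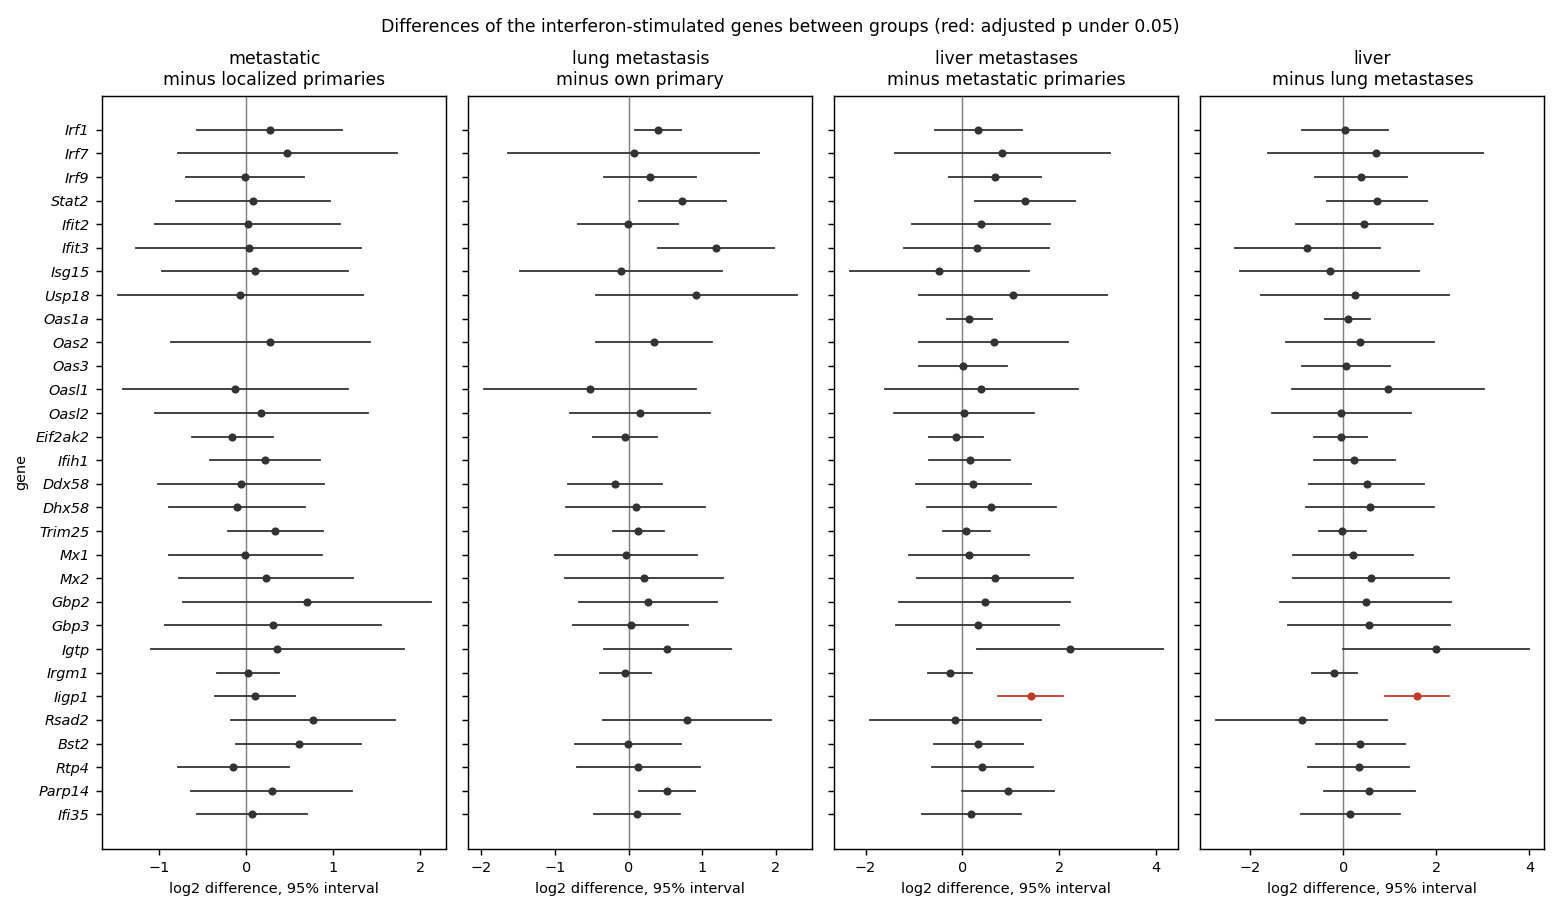
Log2 differences of each tested member with 95% intervals in the 4 comparisons, from limma fits over all tested genes. Iigp1 in both liver comparisons is drawn in red for an adjusted p under 0.05, and no other member is.

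The second question of the design was how a lung metastasis differs from the primary it came from. None of 26 members tested was called in the paired fit, in which 5.69% of 11214 genes were higher and 2.59% lower in the metastases. The median difference of the members was 0.13 and 18 of 26 were above 0. All genes had a median of -0.06, with 4988 of 11214 above 0. Ifit3 was at 11.31 ± 1.22 (SD, n = 7) in lung metastases and 10.13 ± 1.19 in their own primaries, a difference of 1.18 (0.39 to 1.97; limma adjusted p = 0.072), and was higher in 6 of 7 pairs. Irf1, at 12.21 ± 0.57 against 11.81 ± 0.57, was higher in 7 of 7 pairs by 0.40 (0.09 to 0.71; adjusted p = 0.11). Parp14 was also higher in 7 of 7 pairs, by 0.52 (0.15 to 0.90; adjusted p = 0.091), and Stat2 in 6 of 7, by 0.73 (adjusted p = 0.12). Without the CR-147 pair Ifit3 passed the threshold, at 1.46 (adjusted p = 0.031). Without the 3 pairs whose lung lesion held hepatocyte transcripts Oas2 and Rsad2 passed it, at 1.18 (adjusted p = 0.043) and 1.80 (adjusted p = 0.031).

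The pairs went opposite ways, which the mean of the 7 does not show. In CRE-155, 19 of 26 members were at least 2-fold higher in the lung metastasis and none 2-fold lower, where 11% of genes were that much higher and 7.62% that much lower. Isg15 was up by 3.16, Irf7 by 3.72 and Usp18 by 3.89 in that pair. RF-212 had 14 members 2-fold higher (13.2% of genes) and none lower (9.59%), with Ifit3 up by 2.48 and Usp18 by 2.33. FC-279 had 6 higher (9.78% of genes) and none lower (5.05%), led by Ifit3 at 1.70. These 3 specimens thus had higher levels at the metastatic site. CR-147 showed the opposite, with 10 members 2-fold lower (5.64% of genes) and none higher (6.45%), Isg15 being at -2.75 and Oasl1 at -2.59. FC-28 had 14 lower (20.4% of genes) and 2 higher (20.2% of genes), with Oasl1 at -3.45 and Mx1 at -2.60 but Rsad2 at 1.65 and Oas2 at 1.19. RF-364 had 1 lower (4.65% of genes), which was Irf7 at -2.39, and none higher (7.45%), and RF-379 had 2 higher (7.48% of genes), Ifit3 at 2.16 and Usp18 at 1.05, and 1 lower (2.92% of genes), Oasl1 at -1.23. Single pairs have no replicate, so these are descriptions.

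The median member difference by pair was 1.61 in CRE-155, 1.11 in RF-212, 0.72 in FC-279, -0.04 in RF-364, -0.12 in RF-379, -0.84 in CR-147 and -1.08 in FC-28, where the median of all genes stayed between -0.11 and 0.02. Both FC-28 arrays had low background. In each of the other 6 pairs the primary had high and the lung lesion low background, so that site and background cannot be told apart there. Lung epithelium markers were higher for 11 of 11 tested members of that list in the paired fit, B and plasma cell markers for 3 of 3, hepatocyte markers for 3 of 8, neutrophil and marrow myeloid markers for 2 of 11, T and NK cell markers for 1 of 10 and endothelial markers for 1 of 8. Skeletal muscle markers were lower for 9 of 9, with a median difference of -4.93. Their part in the differences was not tested.

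**Figure D5:**
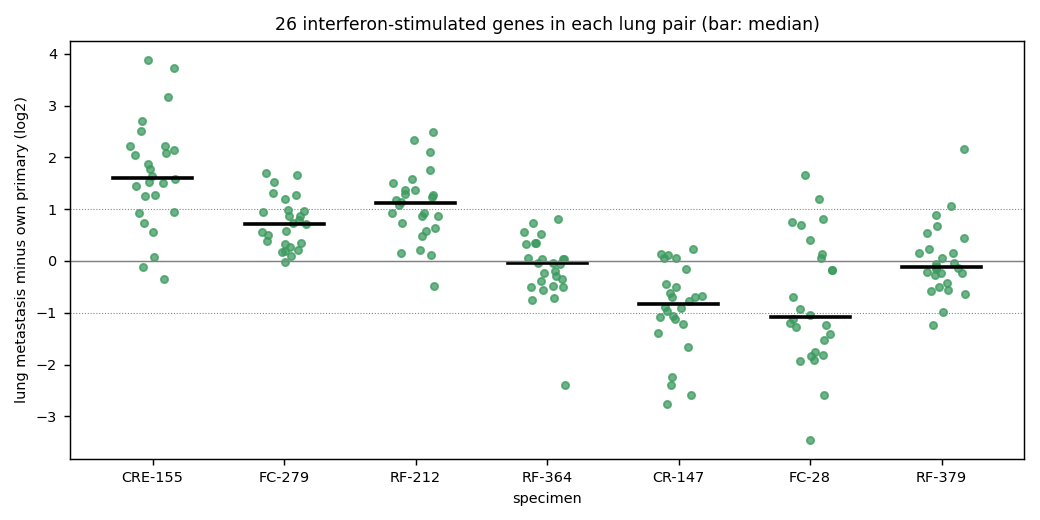
Lung metastasis minus own primary (log2) for 26 interferon-stimulated genes in each of 7 specimens, 1 point a gene, with a bar at the median and dotted lines at 2-fold. CRE-155, RF-212 and FC-279 lie mostly above 0, CR-147 and FC-28 mostly below, and RF-364 and RF-379 around it.

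Of 84 pathway genes outside the members, 4 were called higher in the lung pairs and none lower, where 5.69% of all genes were called higher and 2.59% lower. Ifnlr1, the receptor chain of type III interferon, which acts mainly on epithelium, rose by 2.52 ± 0.35 (SE; limma adjusted p = 0.0023) and in 7 of 7 pairs. Icam1, an adhesion molecule induced by interferon-gamma, rose by 2.73 ± 0.26 (adjusted p = 0.00025), and Cd274, the checkpoint ligand PD-L1, by 1.25 ± 0.28 (adjusted p = 0.027), each in 7 of 7 pairs. Uba7, the enzyme that activates Isg15 for conjugation, rose by 0.67 ± 0.17 (adjusted p = 0.041), also in 7 of 7. The Uba7 call was lost whichever pair was left out (adjusted p = 0.051 to 0.11) and with median scaling (0.31, adjusted p = 0.13). For Cd274, leaving out RF-364, RF-212, CRE-155 or FC-279 ended the call, with adjusted p from 0.066 to 0.080. With array background as a covariate Cd274 was at 0.22 (adjusted p = 0.93). On the list of 36 further interferon-induced genes tested, Uba7 was the 1 call, and 26 of the 36 differences were above 0. Of all genes, 4988 of 11214 were above 0. Lung tissue was present in every metastasis (marker means above), and whether it carried these transcripts was not tested.

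For the liver metastases, 1 of 30 members was called, against both comparison groups. Iigp1 was at 6.17 and 7.17 in the 2 liver metastases, while metastatic primaries had a low of 4.70, a median of 5.08 and a high of 6.51, and lung metastases 4.63, 4.91 and 5.49. The liver values overlapped those of the primaries through RF-104 alone and did not overlap the lung metastases, as held for 17.3% of genes. Iigp1 was detected on 4 of 12 metastatic primaries and 1 of 7 lung metastases, so that most of the levels it is set against were not above background. In the fit with specimen as a random block Iigp1 was higher in liver than in metastatic primaries by 1.41 (0.74 to 2.08; limma adjusted p = 0.0048), where 7.09% of genes were called higher. It was higher than in lung metastases by 1.58 (0.89 to 2.28; adjusted p = 0.0024), where 5.76% of genes were. No member was called lower in either comparison, where 2.28% and 3.24% of genes were. With 2 lesions the call rested on RF-342: without it the differences were 0.98 (adjusted p = 0.21) and 1.16 (adjusted p = 0.12). With array background as a covariate the difference from primaries was 0.54 (adjusted p = 0.61). The median of the 30 members was 0.33 against primaries and 0.35 against lung metastases, where all genes had -0.17 and -0.10.

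Igtp had the largest estimate, 2.22 (0.29 to 4.14) against primaries and 1.99 (0.00 to 3.98) against lung metastases, with limma adjusted p of 0.16 and 0.26. Stat2 was higher than in primaries by 1.29 (0.27 to 2.32; adjusted p = 0.12). Of 93 pathway genes tested, 3 were called higher than in primaries and 2 higher than in lung metastases, where 7.09% and 5.76% of all genes were. None was called lower, where 2.28% and 3.24% of all genes were. Lgals9, a galectin, was higher by 2.41 ± 0.44 (SE) than in primaries and by 2.25 ± 0.46 than in lung metastases (adjusted p = 0.0005 and 0.0018). Ikbke, a kinase that activates Irf3 and Irf7, was higher by 1.59 ± 0.36 and 1.81 ± 0.38 (adjusted p = 0.0048 and 0.0021). Rnf125, a ubiquitin ligase that restrains RIG-I, was higher than in primaries by 1.94 ± 0.55 (adjusted p = 0.027). These calls were lost without the CR-147 liver lesion, which leaves RF-342 alone. Rnf125 then fell to 0.28. Against primaries and lung metastases Lgals9 was at 1.93 and 1.76 and Ikbke at 1.5 and 1.72. The Ikbke difference thus hardly changed, although its call was lost. With array background as a covariate the differences from primaries were 1.65 for Lgals9 (adjusted p = 0.16), 0.77 for Ikbke (0.51) and 1.61 for Rnf125 (0.38). Hepatocyte markers were called higher in liver metastases than in primaries for 12 of 12 tested, lung epithelium markers for 7 of 11 and B and plasma cell markers for 2 of 4, and skeletal muscle markers lower for 4 of 10. Against lung metastases, 11 of 12 hepatocyte markers were higher, and 9 of 11 lung epithelium and 3 of 8 endothelial markers lower. Their part in these differences was not tested. The 2 comparisons share the liver arrays.

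Specimen CR-147 gave a primary, a lung and a liver lesion. Of 26 members 23 were higher in its liver than in its lung lesion and 17 higher than in its primary, with median differences of 1.29 and 0.36. The shares and medians of all genes are not given beside these, so they describe single arrays only. Usp18 was at 9.59 in the primary, 8.19 in the lung and 10.59 in the liver lesion, and Irf7 at 7.93, 5.54 and 8.46. Isg15 was at 10.24, 7.49 and 9.69, and so highest in the primary. The lung lesion was thus the lowest of the 3 for each of these genes, and with 1 array a site there is no test. The mean level of hepatocyte markers was 5.12 in the primary, 10.38 in the lung and 12.81 in the liver lesion, and that of lung epithelium markers 4.91, 11.40 and 9.04. Their part in these differences was not tested.

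Different probes of a gene mostly moved together. Of 18 members with several probes, 16 further probes were detected on at least 14 arrays, and their median correlation with the probe used was 0.93 over 27 arrays, a description over shared arrays. Irgm1 was the exception, at 0.22, where the next lowest was 0.60. Its level row therefore stands for one probe and not for the gene.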

How the data were processed

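RNA of 27 tumours was measured on Illumina bead arrays, and the authors deposited each array's averaged bead intensity per probe (45281 probes) and a detection score, a fraction from 0 to 1 that is high for bright probes. BeadStudio is named in the submitters' processing notes, with no version given. A deposited table of the authors' processed log2 values of the same arrays, its centring and background steps unstated, carried the probe identifiers. The intensity rows were paired with it by identical rank profiles on all 27 arrays, which paired all 45281 probes, and genes were named from the platform annotation (34885 probes with 1 symbol, 18 with several, 10378 with none). Intensities were background-corrected by normexp on the detection p, quantile-normalised and log2-transformed with an offset of 16 (neqc, limma 3.58.1, statmod 1.5.0, R 4.3.3).

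Genes were tested with lmFit and eBayes over all named genes detected on at least 6 of 18 primaries, 7 of 14 paired arrays (specimen as a fixed block) or 2 of 21 arrays (specimen as a random block, consensus correlation 0.355), two-sided, with Benjamini-Hochberg adjustment. This gave 28, 26 and 30 tested members. The pairing follows from the specimen numbers: deviations of each lung lesion correlated with those of its own primary at 0.324 to 0.548, highest for its own in 7 of 7. The text names all members, pathway genes past the threshold in a comparison, the interferon and receptor genes, and marker genes. The members and lists were chosen with earlier results of these data known. The number of arrays limits the precision. The slope fits were tested on simulated data, as were the group fits. Alternatives covered background correction, scaling, filters, probe choice, covariates, blocks and samples left out.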

Additional observations from a re-analysis of the deposited data

Results flagged for a closer look

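In 4 of 90 sets of a gene and a group, 1 array stood apart from the others by more than Dixon's limit allows, where chance gives about 1 in 20. The count is thus no more than chance gives, and the sets share their arrays. In localized primaries RF-56 was highest for Oas1a, at 5.87 with the next array at 4.77, and for Gbp2, at 13.15 with the next at 10.1. In lung metastases RF-212 was highest for Oas3, at 6.97 with the next at 5.0, and for Ifih1, at 7.04 with the next at 5.72. Oas1a, Oas3 and Ifih1 were detected on few arrays, 4, 7 and 14 of 27, so that most of the values they stand apart from were not above background.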

How the results depend on the processing

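Of 2107 recomputed differences of single members, 2099 kept their side of the threshold, 3 lost a call, 5 gained one and none reversed a called direction. Among the 2099, 285 without a call changed sign. The median member difference between primaries moved from 0.10 to 1.19 within low-background arrays. In the lung pairs, members called higher went from 0 to 1 with array weights (Ifit3, 1.26), to 2 without the 3 pairs with hepatocyte transcripts, and ranged from 0 to 1 with each pair left out; with array background as a covariate the median was -2.23. In the liver comparisons, members called higher went from 1 to 0 with a stricter filter on detection, which removes Iigp1, and ranged from 0 to 1 with each liver lesion left out. Against primaries, the background covariate gave 0 members and a median of -0.73. Without the lung metastases with hepatocyte transcripts, 1 member was lower in liver, Rsad2 at -2.43. Members with a positive slope on Isg15 went from 11 to 0 within low-background arrays, within high-background arrays and without the 2 farthest primaries. They also went to 0 without the primaries lacking bone transcripts and in the 7 lung metastases. With Irf7 in place of Isg15 there were 17. Leaving out 1 primary gave 1 to 19 members, where 2 to 59 of all genes were called. The slope fits and their alternatives were chosen after seeing the data. The causes of these changes were not tested.

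Without the replicate block, which ignores the pairing by specimen, members called higher stayed at 0 in the lung pairs (median 0.13) and at 1 in both liver comparisons (medians 0.12 and 0.17). Among pathway genes Cd274 (adjusted p = 0.16), Uba7 (0.39) and Rnf125 (0.12) lost their call without it. Without a detection filter Cd274 (0.058) and Rnf125 (0.066) lost it, without the pairs with hepatocyte transcripts Cd274 (0.059) and Uba7 (0.088), and with the background covariate Ifnlr1 (0.052) and Uba7 (0.25). Counts of genes called over all alternatives, the main settings aside, were 0 to 2 lower between primaries, 175 to 764 higher and 51 to 2022 lower in the lung pairs, 542 to 1069 higher and 68 to 500 lower for liver against primaries, and 398 to 893 higher and 145 to 712 lower for liver against lung. Lung pairs within 1 background class were not run, since 1 pair is all low and none all high.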

Other observations

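In the arrays with the highest Isg15, Ifna6 was at 6.47 in RF-56 and 6.81 in the RF-212 lung metastasis, within its range of 6.37 to 7.23 over all arrays. Siglech, a marker of plasmacytoid dendritic cells, the main producers of type I interferon, was detected on 26 arrays, with 7.78 in RF-56 and 7.89 in the RF-212 lung metastasis within an overall range of 5.29 to 8.60. The mean of the 7 detected markers of these cells, Bst2 among them, stood higher in its groups. It was 8.27 in RF-56, the highest of the localized primaries, which began at 6.83. In the RF-212 lung metastasis it was 8.61, the highest of the lung metastases, which began at 7.61. These are values with no test.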
